A study of Mus musculus with 17 samples.

Results

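Mouse chromosome 13 carries a dense array of genes for zinc-finger proteins of the KRAB family, among them the regulators of sex-limitation Rsl1 and Rsl2. The genes described here are the rows of the deposited count table whose symbol starts with Zfp or Rsl and whose start lies between 59000000 and 69000000 on chromosome 13 (mm10). The rule found 28 of 36172 rows. The members were thus chosen by symbol and position and then selected on their mean raw count: 27 of them had a mean raw count of 5 or more over 17 animals. The gene just inside that minimum was Zfp457 with a mean count of 7.19, and the gene just outside was Zfp369 with a mean count of 2.10. The set was picked with earlier results of these data in view, so its levels in this muscle are given as a description.

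RNA was sequenced from the extensor digitorum longus (EDL) muscle, a fast muscle of the lower leg, of 17 mice. An empty vector had been given to 10 animals (5 females and 5 males) and a Hand2 vector to 7 (4 females and 3 males). Hand2 is a basic helix-loop-helix transcription factor known from the sympathetic nervous system, and the title of the series concerns preserving that system's neurons and preventing muscle loss in old age. Strain, vector type and route are not stated in the labels, and no other allele or agent is named. The age was 22 months in empty-vector females 1 and 2, empty-vector male 10, Hand2 females 1, 2 and 3 and Hand2 male 4. It was 23 months in empty-vector females 3, 4 and 5, empty-vector males 6, 7, 8 and 9, Hand2 female 5 and Hand2 males 6 and 7. Animal numbers run within a vector group in order of deposit and pair no animals.

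KRAB zinc-finger proteins bind DNA through arrays of C2H2 fingers, and their KRAB domain recruits the corepressor TRIM28 (KAP1). That corepressor brings in the histone methyltransferase SETDB1 and heterochromatin proteins, and the family is best known for silencing transposable elements. Rsl1 and Rsl2 are known from the liver, where they keep genes of male liver low in females. Their genes arose by repeated duplication, so neighbours can be close in sequence.

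Of the 27 genes, 23 lay between 67 and 68 Mb and the whole set spanned 62129890 to 67827000. The minus strand carried 21 of them and the plus strand 6. In the authors' table, 17 had Rsl or Rslcan as symbol or alias, and Rsl2 is an alias of Zfp429. The homology column of that table placed 12 in a set with Rsl1 and 10 in a set with Zfp708, which holds 13 rows in all. By a residue pattern in the longest open reading frame of the GENCODE transcripts, the number of C2H2 fingers ran from 2 in Zfp367 to 23 in Zfp748, with a median of 12.

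Promoter sequences show how alike some genes of the array are. The 250 bases before the RefSeq start site (GRCm38.p6, the same build as mm10) are printed for Rsl1, Zfp429 and Zfp456. Their promoters were 88.8% to 90.0% identical, and Zfp456 was measured at a lower level than Rsl1 and Zfp429. Capitals mark the E-box CANNTG, the letter pattern that basic helix-loop-helix factors such as Hand2 are known to bind, which reads the same on both strands.
Rsl1, plus strand, chr13:67172932-67173181: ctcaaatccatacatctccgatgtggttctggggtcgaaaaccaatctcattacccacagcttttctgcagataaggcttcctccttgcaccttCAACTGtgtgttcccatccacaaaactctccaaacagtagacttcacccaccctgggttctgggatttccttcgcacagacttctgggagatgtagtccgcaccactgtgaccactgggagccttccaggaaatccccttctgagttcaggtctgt
Zfp429, minus strand, chr13:67399768-67400017: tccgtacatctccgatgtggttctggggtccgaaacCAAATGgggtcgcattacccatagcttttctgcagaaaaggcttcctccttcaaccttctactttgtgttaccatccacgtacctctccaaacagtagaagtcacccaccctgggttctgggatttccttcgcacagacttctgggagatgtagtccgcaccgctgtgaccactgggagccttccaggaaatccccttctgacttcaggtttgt
Zfp456, minus strand, chr13:67375764-67376013: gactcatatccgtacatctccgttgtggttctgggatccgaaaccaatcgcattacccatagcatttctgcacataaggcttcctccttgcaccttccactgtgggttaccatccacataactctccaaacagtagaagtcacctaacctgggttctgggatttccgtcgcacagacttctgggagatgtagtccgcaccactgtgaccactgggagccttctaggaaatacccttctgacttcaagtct

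The promoter of Rsl1 was 90.0% identical to those of both Zfp429 and Zfp456, and those of Zfp429 and Zfp456 were 88.8% identical to each other. The median over gene pairs within a homology set was 55.6%, close to 54.4% for pairs from different sets. The E-box stood once in the promoters of Rsl1 and Zfp429 and not in that of Zfp456. RefSeq gave 26 promoters for 24 of the genes, and 16 of these held an E-box, against 66.2% of 32851 mouse promoters of the same length. A match is a description of letters, and says nothing of binding.

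Coding sequences of some genes of the set were closer still. Identity in coding sequence, over the shorter length, was 98.0% for Zfp808 and Zfp934, 96.6% for Rsl1 and Zfp429, and 95.7% for Zfp874a and Zfp874b. The median was 74.6% over gene pairs within a homology set and 71.4% over pairs from different sets. Of all 50-base stretches of the transcript, 39.8% in Zfp934 and 35.4% in Zfp808 also occurred in another of these genes. That share was 26.2% for Rsl1 and 26.1% for Zfp429, with a median of 5.3% over the set, and it was above 10% in 10 of 27. Against all genes of the annotation, the share had a median of 17.4% and was above 10% in 18 of 27. It was 65.3% in Zfp456, mostly through the predicted gene Gm17039. It was 64.8% in Zfp935, where the entry sharing most is another annotated gene of the same symbol. Zfp58 had 50.2%, Rslcan18 47.2% and Zfp874b 31.4%. All 50-base stretches of Zfp708 were also in the predicted transcript Gm28557, and the loci of Zfp708 and Rslcan18 overlap on the minus strand. How the authors divided shared reads is not stated, so values of these genes can include reads of their copies. The deposited estimated counts were not whole for a median of 82.35% of a gene's values.

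Most of the cluster was measured at a low level. Levels are in CPM, counts scaled to library size, here after adjustment by the trimmed mean of M values (TMM). Mean CPM over 17 animals ran from 0.273 for Zfp457 to 46.5 for Zfp367, with a median of 2.77, and 19 of 27 genes were under 5 CPM. Zfp367 ranged from 34.7 to 52.7 CPM across animals. It lies outside the dense array, is alone in its homology set and shared no 50-base stretch with another of these genes. A KRAB domain was not looked for in any gene, so membership in that family is not shown here. Zfp874b ranged from 13.9 to 20.3 CPM and Zfp874a, its close copy, from 6.48 to 14.4 CPM, and these ranges overlap. At the low end, Zfp457 ranged from 0.0863 to 0.448 CPM, Zfp458 from 0.470 to 1.38 CPM and Rslcan18 from 0.259 to 1.60 CPM. In bulk tissue, fewer cells of a type and less RNA per cell cannot be told apart.

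Per kilobase of transcript the order was led by Zfp367 at a mean of 13.2 CPM per kb, with Zfp874b next at 4.73 and Zfp874a at 2.99. Rsl1 at 0.919 and Zfp429 at 0.897 CPM per kb stood next to each other in the middle of the order, and their ranges overlap. Zfp456, whose promoter was 90.0% identical to that of Rsl1, was at 0.231 CPM per kb. Only Zfp457 was lower, at 0.129. These ratios use 1 transcript a gene and inherit the sharing of reads, which for Zfp456 concerns most of its transcript.

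**Figure D1:**
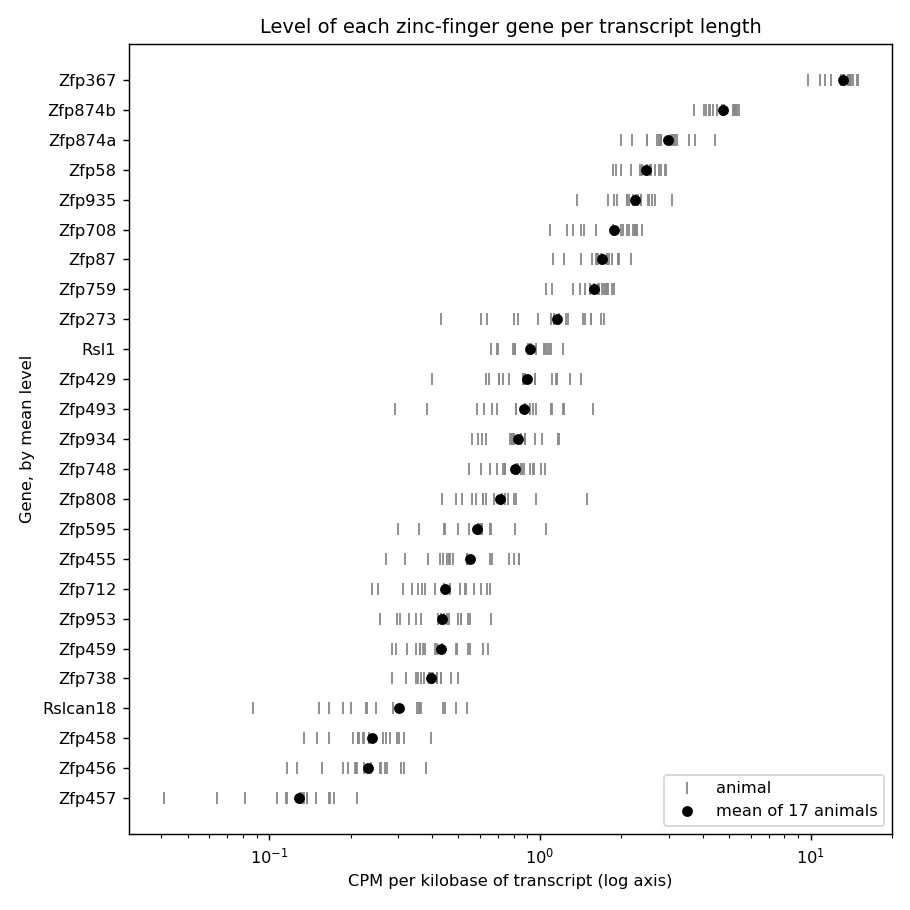
Level of 25 of the 27 genes in CPM per kilobase of transcript on a log axis, with a tick for each of 17 animals and a dot for the mean. Zfp367 stands alone at 13.2, and Rslcan18 has the widest spread relative to its mean, with a coefficient of variation of 42.8%.

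Across animals the members varied more than the typical gene, and they were also lower. Their median coefficient of variation was 23.7% at a median of 2.80 CPM, against 15.0% at a median of 15.0 CPM over all 13965 genes tested. Spread beyond counting was measured by a chi-square per degree of freedom, which is near 1 when only counting varies. It was above 1.5 in 26 of 27 genes, and was 0.710 in Zfp457. Its median was 3.96 in the members tested and 6.19 over all genes tested.

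Before the comparisons, the libraries were checked. Total estimated counts ran from 19181208 to 30942818, with a median of 26091234. Hand2 lay between 0.0711 and 0.940 CPM in the empty-vector animals and between 1.02 and 26.3 CPM in the Hand2 animals, with no overlap. Fast-fibre markers summed to 75540 to 96112 CPM in every animal, as the EDL label has it. Markers of slow fibres summed to 282 to 1456 CPM in females and 135 to 326 CPM in males. Empty-vector females 3 and 4 had the highest sums of immediate-early genes, 1097 and 388 CPM, where the other animals lay between 30.3 and 171 CPM. Empty-vector female 4 also had the highest sum of red-blood-cell genes, 1591 CPM.

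Most of the zinc-finger genes were low in empty-vector females 3, 4 and 5. Female 4 held the lowest value of 14 of the 27 genes, and 22 were below their median there. In empty-vector female 3, 23 genes were below their median, and in female 5, 18 were. Relative to each gene's mean, the median log2 level of the 26 tested genes was -0.43 in female 4, -0.34 in female 3 and -0.15 in female 5. It was 0.23 in Hand2 female 1, where 23 genes were above their median, and lay between -0.12 and 0.08 in the other 13 animals. For the other zinc-finger genes of the table, the same median was -0.09, -0.10 and -0.07 in females 4, 3 and 5, and for the other genes of the window it was -0.028, -0.003 and -0.046. Empty-vector female 2, of 22 months, was the lowest animal for both these sets, at -0.116 and -0.103. For the tested members it was at -0.12, close to female 5. The immediate-early sum of female 5, 113 CPM, lay within the range of the other animals. Red-blood-cell genes summed to 1031, 1591 and 1008 CPM in empty-vector females 3, 4 and 5, against 383 and 530 CPM in empty-vector females 1 and 2. Hand2 male 6 had a sum of 1512 CPM and a median of 0.06 for the tested members. Hand2 female 1 had a sum of 871 CPM. The part of immediate-early genes or of blood RNA in the low values was not tested. Females 3, 4 and 5 are also the only empty-vector females of 23 months.

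The low values of empty-vector females 4 and 5 included both genes at the distal end of the array. Zfp493 was at 0.949 CPM in empty-vector female 4, at 1.24 CPM in female 5 and at 5.11 CPM in female 1. Zfp273 was at 1.04 CPM in female 4 and 1.46 CPM in female 5, against 3.47 CPM in female 1. Zfp935, near the proximal end, went the other way in female 4, with 7.68 CPM against 4.69 to 5.52 CPM in the other empty-vector females. So within 1 animal genes of the set stood on opposite sides of their means.

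**Figure D2:**
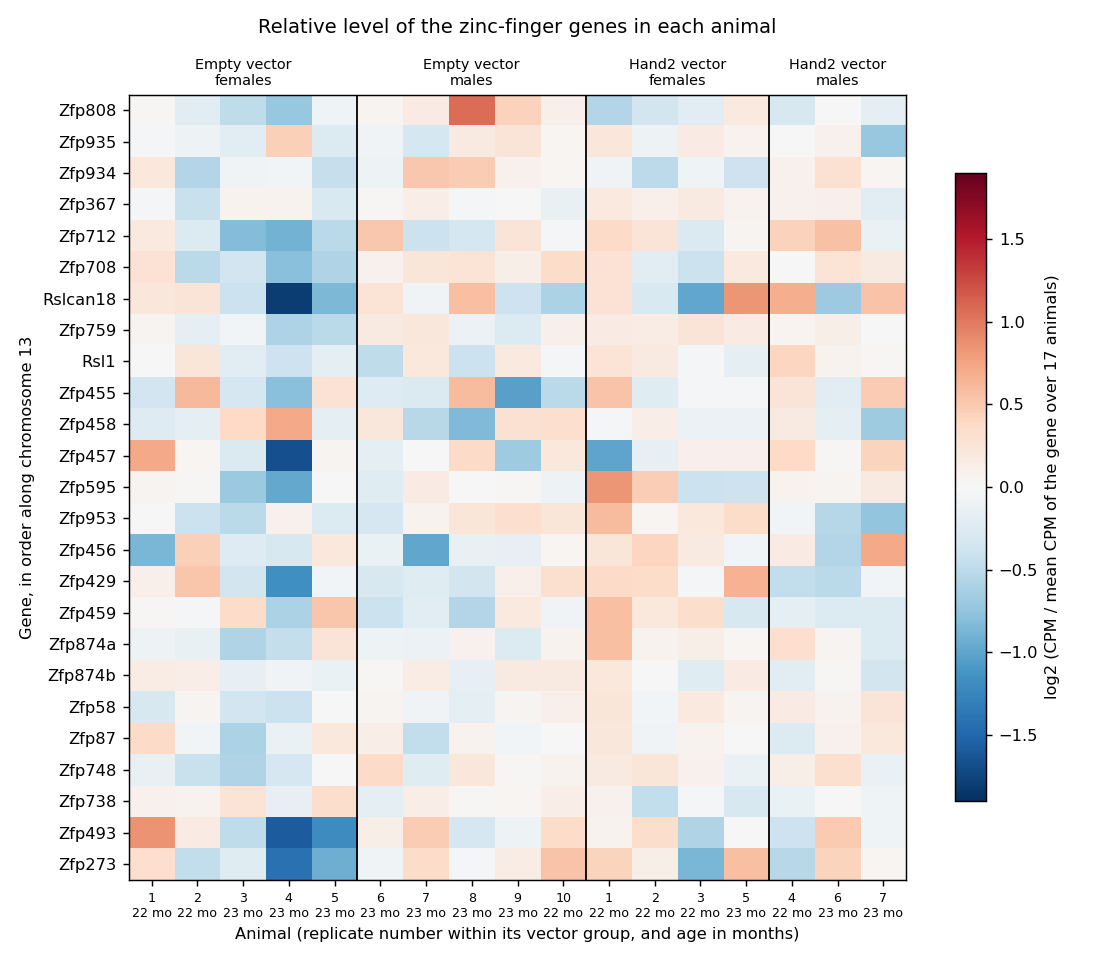
Level of 25 genes in each of 17 animals as log2 of CPM over the gene's mean, with genes in order along chromosome 13 and animals by vector and sex. Empty-vector females 3 and 4 are mostly blue and Hand2 female 1 is mostly red: over all 27 genes, 22 in female 4 and 23 in female 3 were below their median, and 23 in Hand2 female 1 were above.

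The first comparison asks whether the Hand2 vector changed these genes over both sexes. None of the 26 genes tested passed 5% after adjustment, and none of all 13965 genes did (0% called). The members' log2 fold changes had a median of 0.14 (Hand2 over empty vector), with 19 higher and 7 lower. The median was -0.0041 over all genes tested, of which 48.3% were higher. It was 0.04 over 313 other zinc-finger genes (62.3% higher) and -0.00063 over 41 other genes of the window (48.8% higher). Lists of marker genes went both ways. All 5 macrophage markers tested were higher (median 0.20), as were all 5 fibroblast markers (0.18) and all 3 red-blood-cell markers (0.31). All 4 endothelial markers (median -0.09) and all 5 immediate-early genes (-0.58) were lower, as were 2 of 3 adipocyte markers. Of the Schwann-cell markers 2 were higher and 2 lower. None of these genes was called. Macrophage markers summed to 57.7 to 158 CPM in empty-vector and 102 to 139 CPM in Hand2 animals, and their part in the members' values was not tested. At an unadjusted p under 0.05, 4 of 26 members passed, all higher, against 5.05% of all genes. Tests are edgeR's quasi-likelihood F tests with Benjamini-Hochberg adjustment over all genes, on a model with vector and sex. DESeq2 and limma-voom called no member here either.

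Zfp58, of the Rsl1 set, had a log2 fold change of 0.24 ± 0.09 (± SE), with 4.44 to 6.34 CPM (median 5.78) under the empty vector and 5.70 to 7.02 CPM (median 6.57) under Hand2. Zfp712 stood at 0.41 ± 0.19, with 0.949 to 2.54 CPM (median 1.45) and 1.46 to 2.60 CPM (median 2.11). The groups overlap for both, and edgeR's adjusted p was 0.921 for each. Without empty-vector females 3, 4 and 5 the median over the members was 0.06 in place of 0.14, and Zfp712 stood at 0.21. The 3 animals were set apart after the members were seen to be low in them. Leaving them out was therefore bound to lower this median, and the values without them, here and below, are descriptions and no check.

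The intervals of Rsl1, Zfp429 (Rsl2) and Zfp458, another gene of the array, all included 0. Rsl1 was at 1.71 to 2.79 CPM (median 2.22) under the empty vector and at 2.09 to 3.15 CPM (median 2.50) under Hand2, a log2 fold change of 0.20 ± 0.13 (95% interval -0.08 to 0.49). Zfp429 was at 0.820 to 2.65 CPM (median 1.68) and 1.30 to 2.92 CPM (median 1.82), a log2 fold change of 0.14 ± 0.21. Zfp458 was at 0.470 to 1.38 CPM (median 0.860) and 0.524 to 0.944 CPM (median 0.778), a log2 fold change of -0.17 ± 0.22. The groups overlap for all 3 genes. Without empty-vector females 3, 4 and 5 the value was -0.13 for Zfp429, the opposite direction, 0.12 for Rsl1 and -0.011 for Zfp458.

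Within females, Zfp759, a member of the Zfp708 set, was higher in every Hand2 animal than in every empty-vector animal, although the difference was not called. Empty-vector females were at 3.67, 3.87, 4.88, 5.32 and 5.75 CPM, and Hand2 females at 6.12, 6.12, 6.18 and 6.55 CPM. The log2 fold change was 0.41 ± 0.14 with an adjusted p of 0.802 by edgeR, and 0.23 without empty-vector females 3, 4 and 5. Such a clean split upward was seen in 2 of 26 members and in 0.874% of all genes. A clean split downward was seen in 0 of 26 members and in 0.773% of all genes. In males Zfp759 was at 4.60 to 6.44 CPM under the empty vector and 5.50 to 5.98 CPM under Hand2, which overlap.

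Zfp953, of the Rsl1 set, pointed opposite ways in the sexes. Females were at 1.42, 1.53, 1.71, 2.02 and 2.16 CPM with the empty vector and at 2.08, 2.34, 2.58 and 3.09 CPM with Hand2, a log2 fold change of 0.51 ± 0.20 (adjusted p = 0.827 by edgeR). Males were at 1.64, 2.12, 2.38, 2.39 and 2.54 CPM with the empty vector and at 1.20, 1.39 and 1.97 CPM with Hand2, a log2 fold change of -0.53 ± 0.23 (adjusted p = 1 by edgeR). The groups overlap in each sex. The male minus female difference was -1.04 ± 0.30, with an adjusted p of 0.9997 by edgeR.

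Zfp273, of the Zfp708 set and at the distal end of the array, overlapped between the female groups. Empty-vector females were at 1.04, 1.46, 2.0, 2.35 and 3.47 CPM and Hand2 females at 1.52, 2.99, 3.70 and 4.13 CPM, a log2 fold change of 0.57 ± 0.32 by edgeR (adjusted p = 0.865). In males the value was -0.18 ± 0.35.

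**Figure D3:**
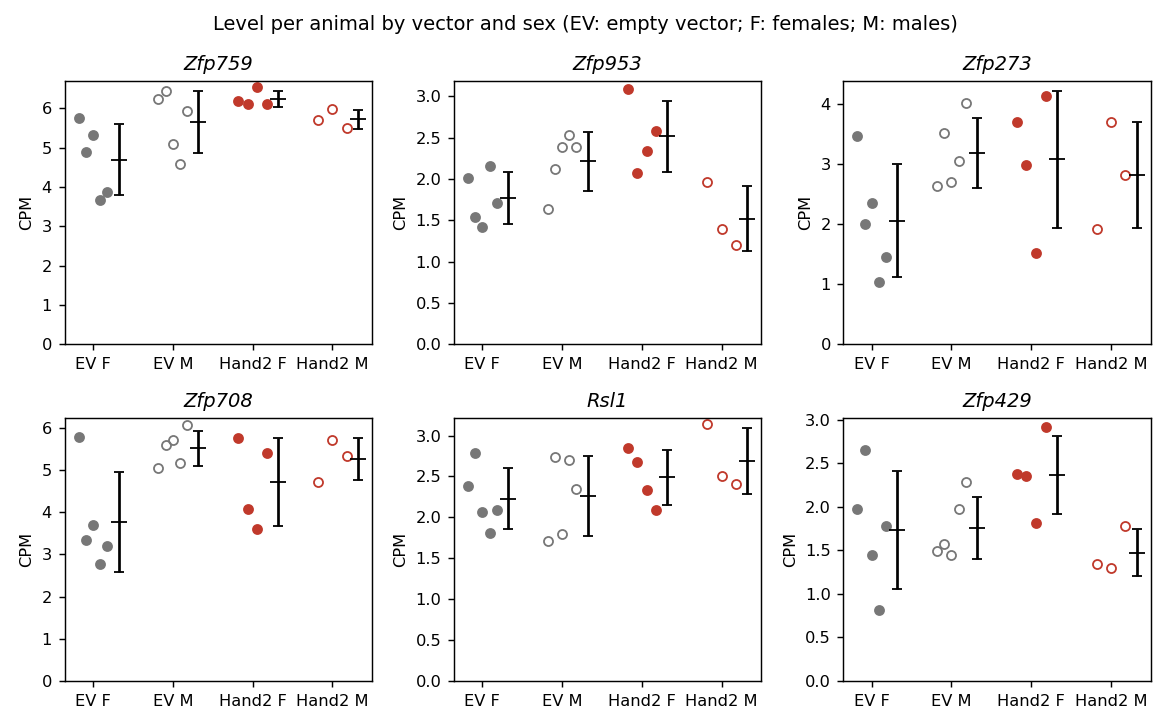
CPM of 6 genes in each animal, in 4 groups by vector and sex, with bars for mean ± SD. The 4 Hand2 females lie above all 5 empty-vector females for Zfp759, and the female groups overlap for Zfp953, Zfp273, Zfp708, Rsl1 and Zfp429.

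Over the set, the female vector fold changes had a median of 0.26, with 22 of 26 higher, against -0.0044 over all genes and 0.07 over the other zinc-finger genes. The share higher was 84.6% of members, 70.3% of the other zinc-finger genes, 58.5% of the other window genes and 48.4% of all genes. Of the Rsl1 set 11 of 12 were higher, and of the Zfp708 set 7 of the 9 tested. None was called by edgeR, as for all genes (0%), and 8 members had an unadjusted p under 0.05 (7 higher, 1 lower) against 5.9% of all genes. DESeq2 called 1 member, among 7 of all genes. With Hand2 female 3 left out, edgeR called 1 member, and the share of all genes called in that fit is not given here. Besides Zfp759 and Zfp953, the 8 members with an unadjusted p under 0.05 included Zfp58, Zfp748, Zfp367 and Zfp874a, at 0.30, 0.37, 0.23 and 0.39. Zfp738 was also among them, at -0.29. The empty-vector females 3, 4 and 5 enter this comparison: without them the median was 0.13. Macrophage markers summed to 85.4 to 111 CPM in empty-vector females and 110.0 to 139 CPM in Hand2 females, and fibroblast markers to 476 to 1066 CPM and 693 to 997 CPM; their part was not tested.

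Within males the members' median was -0.00080, with 13 higher and 13 lower. None was called by edgeR (0% of all genes), and 2 members, Zfp953 and Zfp808, had an unadjusted p under 0.05, against 2.84% of all genes. Zfp808 was at 1.91 to 3.84 CPM under the empty vector and 1.49 to 1.86 CPM under Hand2, a log2 fold change of -0.56 ± 0.26. Empty-vector male 8 alone was at 3.84 CPM, and without it the value was -0.34. Zfp874b was at 15.9 to 20.01 CPM and 13.9 to 17.9 CPM, a log2 fold change of -0.24 ± 0.12. Every Hand2 male was below every empty-vector male for Zfp808, as in 1 of 26 members and 1.42% of all genes, and the reverse held in 0 of 26 members and 1.2% of all genes. The groups overlap for Zfp874b, and edgeR's adjusted p was 1 for both genes.

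The difference between the sexes in the vector effect had a median of -0.26 over the members (male minus female), with 8 above 0 and 18 below. It was -0.09 over the other zinc-finger genes, -0.055 over the other genes of the window and -0.0014 over all genes. The share above 0 was 30.8% of members, 31.9% of the other zinc-finger genes, 31.7% of the other window genes and 49.7% of all genes. The members' split was thus much like that of the other zinc-finger genes and of their neighbours. No member was called by edgeR (0% of all genes), and at an unadjusted p under 0.05 there were 2 members, Zfp953 among them, against 3.39% of all genes. Without empty-vector females 3, 4 and 5 the median was -0.12. This comparison shares its animals with those within each sex.

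**Figure D4:**
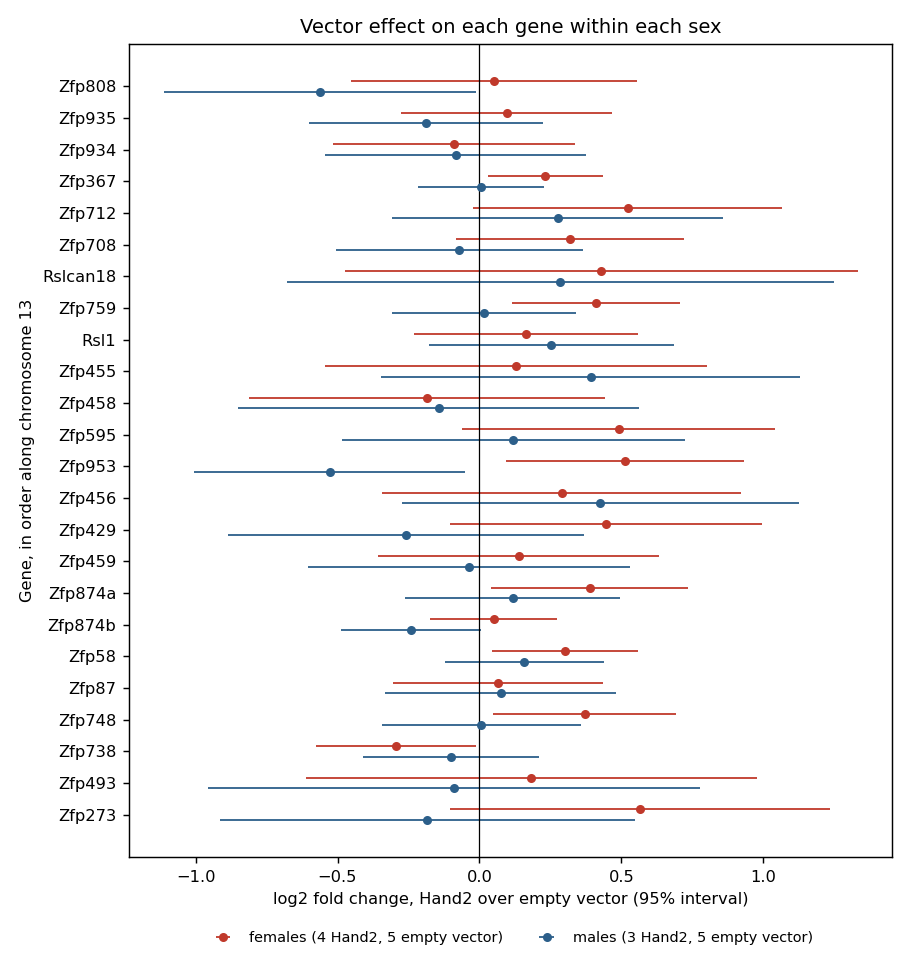
Log2 fold change of Hand2 over empty vector for 24 of the 26 genes tested, in order along chromosome 13, in females (red) and males (blue), with 95% intervals. Over all 26 genes the female median is 0.26 and the male median is -0.00080.

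The sexes themselves were compared because part of the cluster is known for sex-limited regulation in the liver. In this muscle none of the 26 genes was called between males and females by edgeR, while 5.63% of all genes were. At an unadjusted p under 0.05 there were 4 members, 3 higher and 1 lower in males, against 21.6% of all genes. The members' median was 0.034 (male over female), against 0.00058 over all genes. Of the other zinc-finger genes 7 were called, all higher in males, and of the other genes of the window 2 were called higher and 2 lower.

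Zfp708 had the smallest p between the sexes. Females were at 2.76 to 5.79 CPM (median 3.71) and males at 4.72 to 6.06 CPM (median 5.46), which overlap, and the log2 fold change was 0.39 ± 0.14 with an adjusted p of 0.116 by edgeR. Without empty-vector female 1, the highest female, it was 0.50 with an adjusted p of 0.0326 by edgeR. Leaving out the highest female was bound to raise this value, so that fit is no check. It was the largest of 17 fits with an animal left out, which ran from 0.33 to 0.50. The share of all genes called in it is not given here. Without empty-vector females 3, 4 and 5 the value for Zfp708 was 0.20 with an adjusted p of 0.545 by edgeR. Zfp934 stood at 0.38 ± 0.14, with 1.21 to 2.05 CPM (median 1.69) in females and 1.67 to 2.54 CPM (median 1.89) in males. Zfp808, its close copy, stood at 0.44 ± 0.18, with 1.12 to 2.09 CPM (median 1.58) and 1.49 to 3.84 CPM (median 1.94). Without empty-vector females 3, 4 and 5 the value of Zfp808 was 0.26. In the animals of 22 months alone it was 0.12, that of Zfp934 was 0.22 and that of Zfp708 was 0.23. The sexes overlap for Zfp934 and Zfp808, and these copies share much of their sequence, so they are not independent of each other. For Zfp459, a gene of the Rsl1 set, the value was -0.37 ± 0.17 (adjusted p = 0.219 by edgeR).

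For Rsl1 the sexes were close. Females were at 1.81 to 2.85 CPM (median 2.34) and males at 1.71 to 3.15 CPM (median 2.46), a log2 fold change of 0.06 ± 0.13 with a 95% interval of -0.22 to 0.34. Zfp429 was at -0.26 ± 0.21, with 0.820 to 2.92 CPM in females and 1.30 to 2.28 CPM in males, and Zfp458 at -0.17 ± 0.21. Without empty-vector females 3, 4 and 5 they were at -0.55 and -0.0012. Each of these intervals includes 0 and also differences of some size, so the absence of a call does not show equal levels.

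Lists of related genes were looked up by name. The longer list, of 22 names, held corepressors and chromatin proteins tied to KRAB silencing, together with Zfp809, itself a KRAB zinc-finger gene. Of these 21 were found and tested, and edgeR called 0 of them for vector or sex. Trim28, the corepressor that the KRAB domain binds, was at a mean of 79.7 CPM and Setdb1, its histone methyltransferase partner, at 23.3 CPM. The list's median log2 fold change was 0.016 for the vector (14 higher, 7 lower) and 0.011 for sex (12 higher, 9 lower). Of 16 genes listed for sex-limited regulation in liver, 2 were high enough to test, the complement gene C4b at 21.6 CPM and the glutathione transferase Gstp1 at 187 CPM. The sex-limited complement gene is C4a rather than C4b, so the values of C4b do not describe a sex-limited gene. C4a was at 0.214 CPM, and the major urinary protein gene Mup1 was listed at 0. Neither of the 2 tested was called for vector or sex.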

How the data were processed

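Libraries of EDL muscle RNA from 17 mice were made, per the labels, with Illumina TruSeq v2. The authors deposited estimated counts per gene locus, not scaled for depth, and normalized log2 values, which were used as an alternative. The build is mm10, per the submitters' processing notes. The aligner, the counter, strand use and the treatment of reads matching several genes were not given in the sources used here.

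Deposited counts were rounded, and edgeR's filterByExpr selected genes with vector-by-sex groups (13965, with Zfp457 left out; unfiltered, its vector value was 0.05 ± 0.34 on the log2 scale), which were scaled by TMM. The tests were robust quasi-likelihood F tests of edgeR 4.0.16 (R 4.3.3). A model with vector and sex terms gave those comparisons, and a model of 4 groups gave the vector effect in each sex and the sex difference of that effect. P-values were adjusted by Benjamini-Hochberg over all genes tested, and called at 5%. The SE is the log2 fold change over the square root of F. Each library is a separate animal. The procedure was tested on simulated data. Alternatives were DESeq2 1.42.0, limma 3.58.1 (voom, and the log2 values), other scalings, filters and minimums, an age term, and leaving out animals.

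Named in full were the 3 members of smallest p in each comparison, the 3 highest and 3 lowest by mean CPM, and Rsl1 and Zfp458. The rule took Zfp458 for Rsl2, but the authors' table gives Rsl2 as an alias of Zfp429, so Zfp429 was added. Of the members, 2 are not reported here by name or value, but are in the counts and medians over the set. Zfp273, Zfp493, Zfp456, Zfp874a and Zfp935 were named after their values were seen. The members, gene lists and tests were chosen with earlier results of these data known. Transcript lengths, shared 50-base stretches and coding identity come from GENCODE vM21. Identity is identical bases in a global alignment over the shorter length. Intervals are 95% intervals of the log2 fold change, its value plus or minus a t quantile times the SE. They reflect variation between these animals and are not the range of the animals' values.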

Additional observations from a re-analysis of the deposited data

Results flagged for a closer look

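In groups of 4 or 5 animals, the gap between the most extreme animal and its nearest neighbour was compared with the group's range by Dixon's 95% value. Of 75 gene-and-group sets checked, 4 passed, where chance gives about 3.8. Zfp456 was at 0.480 CPM in empty-vector male 7, where the other 4 males of that vector lay between 0.859 and 0.981 CPM. Zfp935 was at 7.68 CPM in empty-vector female 4, with the other empty-vector females between 4.69 and 5.52 CPM, although that animal held the lowest value of 14 genes of the cluster. Zfp874a was at 14.4 CPM in Hand2 female 1, with the other Hand2 females between 9.92 and 10.4 CPM. Zfp759 was at 6.55 CPM in Hand2 female 3, where the others lay between 6.12 and 6.18 CPM, a gap that stands out because those 3 were nearly equal.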

How the results depend on the processing

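The number of members called was 0 for the vector over both sexes, for the vector in males and for the sex difference of the vector effect under every alternative run, which included DESeq2, limma-voom, limma on the authors' log2 values, other scalings, filters, minimum counts, an age term and each animal left out. For the vector in females it was 1 with DESeq2, and 0 to 1 with an animal left out (1 without Hand2 female 3). For sex it was 0 to 1 with an animal left out (1 without empty-vector female 1: Zfp708, for which that animal was the highest female). The shares of all genes called in the fits with an animal left out are not given here, so these calls lack their background. The medians over the members ran from 0.06 to 0.22 for the vector and from -0.016 to 0.15 for sex. The value of 0.06 is that without empty-vector females 3, 4 and 5, which were picked for their low values. Alternatives chosen after the data were seen turned 5 directions of single genes, none of them called. Without empty-vector females 3, 4 and 5, the vector value was -0.13 for Zfp429 and the sex value -0.031 for Rsl1. In the animals of 22 months alone, the vector value was 0.084 for Zfp458 and -0.28 for Zfp429, and the sex value was 0.34 for Zfp458. The cause was not tested. Low counts limit the smallest members, with a mean count of 7.19 for Zfp457.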
